A study of Mus musculus with 2 samples.

Results

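Meg3, Rian, Dlk1, Peg3, Plagl1, Ndn, Grb10, H19 and Zim1, genes known to be imprinted in the mouse, were taken by symbol from the gene list of a single-cell study of the newborn cerebellum. All 9 were found, each as 1 row, among the 32285 genes. Single-cell 3′ RNA libraries had been prepared from microdissected cerebellar lobules III and IV of mice at postnatal day 1, dissociated with papain. One library came from control littermates, Cxcr4+/+, and the other from heterozygous Cxcr4+/1013 mice, both with the strain label B6.129S2-Cxcr4tm1.1Bala. The 1013 allele carries a truncation of the chemokine receptor CXCR4 that models WHIM syndrome, a primary immunodeficiency, and the study's title names the developmental origins of the structural and psychomotor defects seen in it. The extraction protocol writes the mutant genotype as Cxcr4+/-, and the genotype label was used here. With 1 library per genotype no test between genotypes was possible. The number of animals behind each library was not given in the sources used here.

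An imprinted gene is transcribed mainly from the copy inherited from 1 parent, according to methylation marks set in the egg or sperm, and many such genes act on growth, metabolism and the developing brain. Meg3, Rian and H19 are maternally expressed non-coding RNAs. Dlk1, Peg3, Plagl1 and Ndn are expressed from the paternal copy, Zim1 from the maternal copy, and Grb10 from the maternal copy in most tissues but from the paternal copy in neurons. The counts used here do not separate the parental copies, so every level below is the sum of both.

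The libraries retained 8353 control and 8194 mutant barcodes with at least 500 genes and at most 10% mitochondrial UMIs (unique molecular identifiers, the counted RNA molecules). They held 114764187 and 126145234 UMIs, with medians of 12101 and 13557.5 per barcode. Cells were assigned to 15 classes of at least 20 cells per library by marker genes, and 23.8% of control and 23.5% of mutant barcodes stayed unassigned. Each class is named only for its resemblance to a cell type, and granule neurons, for example, stands for granule neuron-like cells throughout. No class had a marker of another class among its 10 leading genes, apart from Otx2 in midbrain-type GABAergic neurons. Otx2 is on their list and on that of unipolar brush cells. Class sizes differed between the libraries, with 187 control against 35 mutant fibroblasts and 942 against 546 astroglia. Both libraries held cells with Xist and cells with Y-linked UMIs, so each contained female and male cells, and 18 of the retained barcodes occurred in both libraries. Cxcr4 itself stood at 27.1 CPM (UMIs of a gene per 1000000 UMIs) in the control library and at 24.1 CPM in the other, a readout that does not tell the alleles apart.

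Of the members, 5 lie in clusters with another member. On chromosome 12 of GRCm38 (the build called mm10), Dlk1 (chr12:109452823-109463336), Meg3 (chr12:109541001-109571726) and Rian (chr12:109603940-109661716) follow each other on the plus strand, with 77665 bases between Dlk1 and Meg3 and 32214 bases between Meg3 and Rian. On chromosome 7, Zim1 (chr7:6671269-6696450) and Peg3 (chr7:6703892-6730431) share the minus strand 7442 bases apart. Ndn (chr7:62346569-62350262) and H19 (chr7:142575529-142578143) lie far from them on the same chromosome, Plagl1 (chr10:13060504-13131694) on chromosome 10 and Grb10 (chr11:11930508-12038683) on chromosome 11. All positions are whole-gene spans of the GENCODE vM21 annotation, introns included.

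The RefSeq promoter table for GRCm38.p6 held entries for 8 of the 9 members, read here as the 250 bases before each start. The palindrome TGACGTCA, the core of the cyclic AMP response element, was searched on both strands, and its letters include 1 CG pair. It occurred before a start of 2 members, Meg3 and Peg3, and in 1.55% of all 32851 entries. The Meg3, Rian, Peg3 and Grb10 sequences are shown because Meg3 and Rian varied together across cell classes, Peg3 shares the palindrome with Meg3, and Grb10 carried the most CG pairs of the members' entries. Each is written 5′ to 3′ on the strand of its gene, in lower case, with the palindrome in capitals.
Meg3, chr12:109540746-109540995, plus strand: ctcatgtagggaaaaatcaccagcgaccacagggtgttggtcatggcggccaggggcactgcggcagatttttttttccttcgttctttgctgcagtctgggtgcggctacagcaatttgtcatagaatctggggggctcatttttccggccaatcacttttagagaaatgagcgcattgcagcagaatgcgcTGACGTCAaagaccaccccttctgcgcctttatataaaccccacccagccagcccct
Rian, chr12:109603695-109603944, plus strand: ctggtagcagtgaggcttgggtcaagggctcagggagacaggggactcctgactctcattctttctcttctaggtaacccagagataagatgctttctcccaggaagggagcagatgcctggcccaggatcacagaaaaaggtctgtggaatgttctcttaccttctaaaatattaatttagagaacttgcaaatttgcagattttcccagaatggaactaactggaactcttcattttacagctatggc
Peg3, chr7:6730420-6730669, minus strand: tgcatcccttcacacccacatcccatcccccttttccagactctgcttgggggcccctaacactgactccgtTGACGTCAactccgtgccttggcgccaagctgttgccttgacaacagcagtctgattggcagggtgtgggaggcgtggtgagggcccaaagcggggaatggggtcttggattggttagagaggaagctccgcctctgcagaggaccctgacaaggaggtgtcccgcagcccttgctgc
Grb10, chr11:12037421-12037670, minus strand: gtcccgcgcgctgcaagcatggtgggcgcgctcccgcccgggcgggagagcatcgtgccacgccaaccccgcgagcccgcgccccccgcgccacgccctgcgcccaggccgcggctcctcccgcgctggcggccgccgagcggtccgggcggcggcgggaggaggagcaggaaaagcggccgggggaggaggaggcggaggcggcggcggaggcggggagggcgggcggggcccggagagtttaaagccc
The palindrome ended 49 bases before this Meg3 start and 170 bases before the Peg3 start. CG pairs, the sites that imprinting marks use, numbered 10 before this Meg3 start, 0 before Rian, 8 before Peg3 and 40 before this Grb10 start. The median over all entries was 6. Fewer CG pairs than the Grb10 sequence shown were found in 98.7% of entries. Another Meg3 entry, not shown, had 0 CG pairs and no palindrome, and another Grb10 entry had 8 CG pairs. A match of letters is a description of the sequence and no sign that a factor binds there.

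The 3 non-coding members are also hosts of microRNAs, which the 3′ assay does not measure. Within the gene spans and on the same strand, the RefSeq table placed 3 mature microRNAs in Meg3, 6 in Rian and 2 in H19, and no seed was shared among these. One or more from each host is shown so that the host level can be read beside its product, with the seed, bases 2 to 8, in capitals.
miR-770-5p in Meg3: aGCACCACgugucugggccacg
miR-770-3p in Meg3: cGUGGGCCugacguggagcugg
miR-370-3p in Rian: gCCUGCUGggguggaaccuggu
miR-675-5p in H19: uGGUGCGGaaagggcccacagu
miR-675-3p in H19: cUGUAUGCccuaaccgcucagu

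Meg3, a long non-coding RNA known as a growth suppressor, was abundant in postmitotic neurons and scarce in dividing precursors. Levels here are the UMIs of a gene summed over the cells of a class, as CPM of the UMIs of that class, and intervals are 95% intervals that cover counting error only, not differences between cells or animals. In glutamatergic nuclear neurons Meg3 reached 3737 CPM in control and 3449 CPM in mutant cells, the highest class in both libraries. Unipolar brush cells held 2930.2 and 2456 CPM, GABAergic interneurons 2874 and 2727 CPM, and Purkinje cells 2667 and 2682 CPM. These 3 neuron types exchanged places in the order between the libraries. Granule cell progenitors stood lowest, at 49.8 and 54.5 CPM, so the top class stood 74.98-fold above the lowest in the control library and 63.3-fold above it in the mutant library. Outside the neurons, mural cells of vessel walls held 1477 and 1484 CPM and fibroblasts 704 and 867 CPM, above the 191 and 166 CPM of astroglia. In the order of classes, 5 of 14 neighbouring pairs had overlapping counting intervals in the control library, and 6 of 14 did in the mutant library.

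Rian, another non-coding RNA of the same cluster and a host of small nucleolar RNAs, followed Meg3 through the classes. It ranged from 7.55 and 6.82 CPM in granule cell progenitors to 281 and 250.2 CPM in glutamatergic nuclear neurons and 265 and 284 CPM in Purkinje cells. Over the 30 sums of 15 classes in 2 libraries, log2(CPM + 1) of the pair correlated at a Pearson r of 0.97, and Rian ranked first among 16127 genes in likeness to Meg3. The points share libraries and depth, and no p is given. The next genes were Map1lc3a at 0.92 and the long non-coding B830012L14Rik at 0.92. Of the other members, Ndn had an r of 0.65 with Meg3, and Dlk1, the protein-coding neighbour, 0.15.

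The proportion between the pair was not fixed. For every 100 Meg3 UMIs, unipolar brush cells held 6.14 Rian UMIs in the control (95% interval 5.63 to 6.69) and 6.21 in the mutant (5.76 to 6.69). Ependymal cells, the ciliated lining of the ventricle, held 30.8 (25.03 to 37.7) and 26.0 (21.1 to 31.8). In each library the intervals of these classes were apart. Interneurons held 7.85 and 8.09, Purkinje cells 9.952 and 10.6, granule neurons 13.2 and 12.3, and oligodendrocyte lineage cells 20.9 and 19.6. In the control library the 5 classes with the most Meg3, all neurons, had the fewest Rian UMIs per Meg3 UMI. In the mutant library mural cells, endothelial cells (8.53) and microglia (9.21) lay below Purkinje cells, so the pattern was not seen there. The intervals of the libraries were apart in Purkinje cells and in mural cells, where control cells held 14.8 (11.8 to 18.4) and mutant cells 7.72 (4.92 to 11.6). The mutant mural value rests on 25 Rian UMIs from 10 cells.

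**Figure D1:**
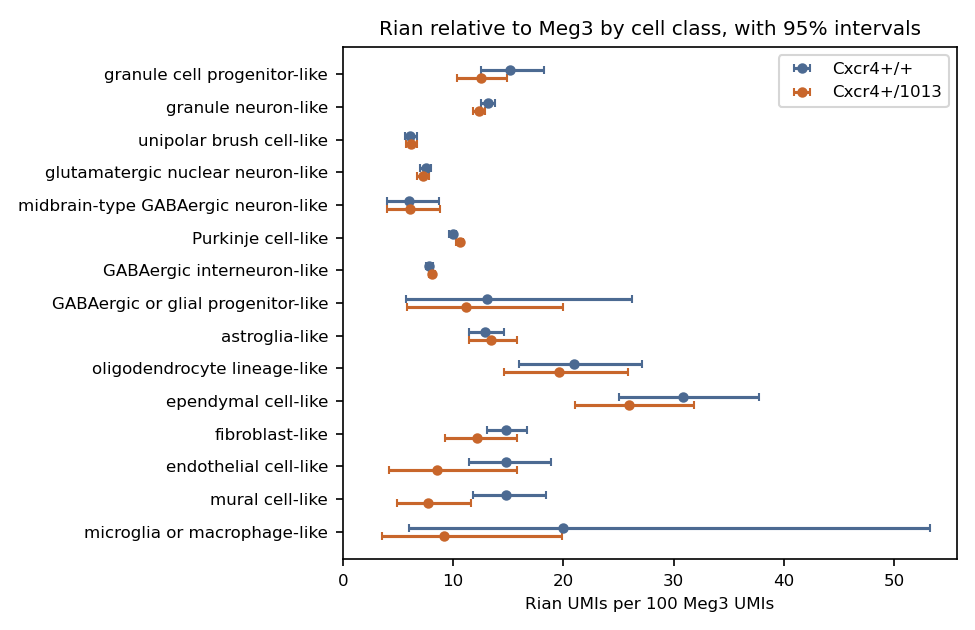
Rian UMIs per 100 Meg3 UMIs (horizontal axis, linear) in 15 cell classes, 1 point per library with its 95% counting interval. Unipolar brush cells lie near 6 in both libraries and ependymal cells at 30.8 and 26.0.

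Dlk1, a transmembrane ligand related to the Notch ligands and the paternally expressed neighbour of Meg3, was concentrated in cells of the vessels and coverings. Mural cells held 230.4 CPM in control and 87.0 CPM in mutant cells, fibroblasts 144 and 82.6 CPM, and endothelial cells 11.6 and 19.6 CPM. Every other class was at or under 8.05 CPM in the control and 2.47 CPM in the mutant. No Dlk1 UMI was seen in 2 classes of the control and 6 of the mutant. After thinning each cell to 4000 UMIs, 40.6% of control fibroblasts (33.1% to 48.4%, exact binomial) and 19.4% of mutant fibroblasts (7.45% to 37.5%) carried a Dlk1 UMI, with 17 and 4 shallower cells left out. The same shares without thinning were 66.8% and 51.4%. Among granule cell progenitors none of 979 and none of 1064 thinned cells did, which allows up to 0.306% and 0.282%. The genes most like Dlk1 over the 30 sums were Hic1, Lamc3 and Vtn at r 0.95, and Vtn was one of the markers that defined mural cells. By class sums, Dlk1 and Meg3, which share a cluster, were thus both well represented in mural cells and fibroblasts. Glutamatergic nuclear neurons, the class richest in Meg3, held 25 control and 5 mutant Dlk1 UMIs. The control value, 8.05 CPM, was the highest outside the cells of vessels and coverings. Cells carrying both RNAs were not counted.

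H19, a non-coding RNA best known from embryonic and placental tissues, was rare, with 195 control and 178 mutant UMIs in all. Fibroblasts held 13.2 and 14.9 CPM, astroglia 6.46 and 10.9 CPM and ependymal cells 5.76 and 10.9 CPM. In the 7 neuron and granule progenitor classes the level was at most 0.326 CPM (control) and 0.409 CPM (mutant). Astroglia, being numerous, carried 40.5% of the control and 47.8% of the mutant H19 UMIs. Fibroblasts carried 39 control and 9 mutant UMIs. The ependymal H19 levels rest on 14 and 22 UMIs. Fibroblast markers were also seen in astroglia, at a summed 57.9 and 92.7 CPM, and in ependymal cells, at 134 and 87.0 CPM. Fibroblasts held 12531 and 10916 CPM of them. The part of these markers in the H19 counts was not tested. Mutant microglia held 9 H19 UMIs and control microglia 1.

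**Figure D2:**
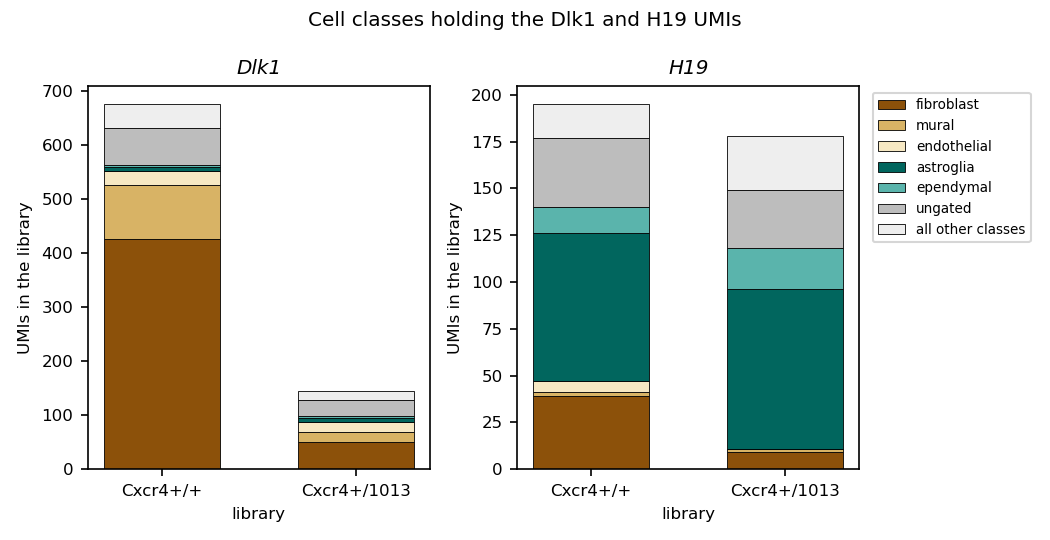
UMIs of Dlk1 (left) and H19 (right) in each library, stacked by the cell class that holds them (linear axes from 0). Dlk1 falls from 675 to 145 UMIs with the fibroblast part going from 426 to 50, and astroglia hold 79 and 85 of the H19 UMIs.

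Grb10 and Plagl1 act on growth, Grb10 as an adaptor that damps signalling of the insulin and IGF receptors and Plagl1 as a zinc-finger transcription factor that restrains the cell cycle. Both were higher in granule cell progenitors than in granule neurons. Grb10 was highest in the GABAergic or glial progenitors, at 191 and 207 CPM, and in fibroblasts, at 158 and 202 CPM. Endothelial cells held 128 and 155 CPM, mural cells 127 and 165 CPM and granule cell progenitors 91.3 and 134 CPM. Neurons held much less, from 26.0 CPM in unipolar brush cells to 40.9 CPM in interneurons of the control, leaving out the 54.0 CPM of the 31 midbrain-type GABAergic neurons. Control microglia had no Grb10 UMI, with a floor of 6.28 CPM for 3 counts, and mutant microglia had 7. Nedd4, a ubiquitin ligase known to bind Grb10 protein, was among the 3 genes most like Grb10 over the 30 sums, at r 0.86, behind Tsen34 at 0.90 and Zeb1 at 0.88.

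Plagl1 was highest in endothelial cells, at 69.6 and 55.6 CPM, and in GABAergic interneurons, at 53.3 and 54.5 CPM. Granule cell progenitors held 29.9 and 27.5 CPM, astroglia 27.2 and 27.0 CPM, and granule neurons 6.13 and 8.58 CPM. Interneurons were not uniform, by 3 genes of which Pax2 and Slc6a5 had also served as class markers. Cells with no UMI of Pax2, an early interneuron marker, held 134 and 142 CPM of Plagl1, and cells with one held 40.7 and 43.0 CPM. Interneurons with a UMI of Slc6a5, the glycine transporter, held 22.1 and 11.96 CPM, and those without held 77.6 and 92.7 CPM. Interneurons with Sst, the somatostatin gene, stood at 71.2 and 71.3 CPM, above the 26.2 and 33.4 CPM of those without. In both libraries the counting interval of each of these ratios left out 1. The deeper cells, by median UMIs, were those with Sst (16829 against 10312 in the control library) but those without Slc6a5 (16306 against 11140.5). Among astroglia, cells with a UMI of Gdf10, a Bergmann glia gene, held 24.3 and 22.7 CPM against 47.9 and 53.1 CPM in cells without. Control astroglia without Gdf10 were shallow, at a median of 4066.5 UMIs against 13904. These splitting genes were chosen with values in view.

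Meg3 also differed along the Pax2 and Slc6a5 divisions of the interneurons. Cells without Pax2 held 4984 and 4943 CPM of Meg3 and cells with it 2543 and 2435 CPM. Rian stood at 338 and 354 CPM without Pax2 and at 208 and 203 CPM with it. Cells with Slc6a5 held 1624 and 1379 CPM of Meg3 and cells without it 3848 and 3935 CPM. Ndn and Peg3 were ordered alike, with 608 and 519 CPM of Ndn and 361 and 363 CPM of Peg3 in cells without Pax2, and 344 and 295 CPM of Ndn and 171 and 169 CPM of Peg3 in cells with it. Grb10 differed less, at 49.9 and 44.4 CPM without Pax2 and 39.4 and 38.9 CPM with it. Zim1 held 11.3 and 17.4 CPM in cells without Pax2 and 3.11 and 3.97 CPM in cells with it. Meg3, Rian, Ndn, Peg3, Plagl1 and Zim1 were thus all higher in interneurons without a Pax2 UMI, which numbered 141 and 149. Since Pax2 was a class marker, these cells had been assigned by other markers of the list. The part of depth or of cell type in these differences was not tested.

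Peg3, Ndn and Zim1 were found in neurons of several kinds. Peg3, a zinc-finger protein linked to maternal behaviour and cell survival, was highest in fibroblasts, at 492 and 449 CPM, and was next in glutamatergic nuclear neurons, at 227 and 197 CPM, and interneurons, at 197 and 192 CPM. It was nearly level between granule cell progenitors, at 160.4 and 169 CPM, and granule neurons, at 159.6 and 150.1 CPM. Purkinje cells held 98.9 and 82.0 CPM and microglia 10.5 and 23.4 CPM. Maged1, a relative of Ndn in the MAGE family, was among the 3 genes most like Peg3, at r 0.83, behind Flrt3 at 0.86.

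Ndn, which encodes the MAGE-family protein necdin and is among the genes silenced in Prader-Willi syndrome, was highest in glutamatergic nuclear neurons, at 449 and 392 CPM, and interneurons, at 380.0 and 321 CPM. Unipolar brush cells held 255 and 195 CPM, Purkinje cells 158 and 140.2 CPM, granule neurons 149.9 and 129 CPM and progenitors 86.8 and 75.9 CPM. Endothelial cells were lowest, at 17.4 and 11.996 CPM. The long non-coding gene Gm32061 overlaps Ndn on the opposite strand, with 501 control and 799 mutant UMIs against 20135 and 20369 for Ndn. The use of strand in counting was not given in the sources used here.

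Zim1, a zinc-finger gene beside Peg3, was the other rare member, with 254 and 245 UMIs. Interneurons held 55 and 93 of them, at 4.22 and 5.53 CPM, and Purkinje cells 52 and 47, at 2.81 and 2.60 CPM. Fibroblasts had the highest level, 12.2 and 6.61 CPM, from 36 and 4 UMIs. Over the 30 sums Zim1 and Peg3 correlated at r 0.68. The genes most like Zim1 included Mirg at 0.80 and Rtl1 at 0.76, both from the Meg3 cluster on chromosome 12.

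**Figure D3:**
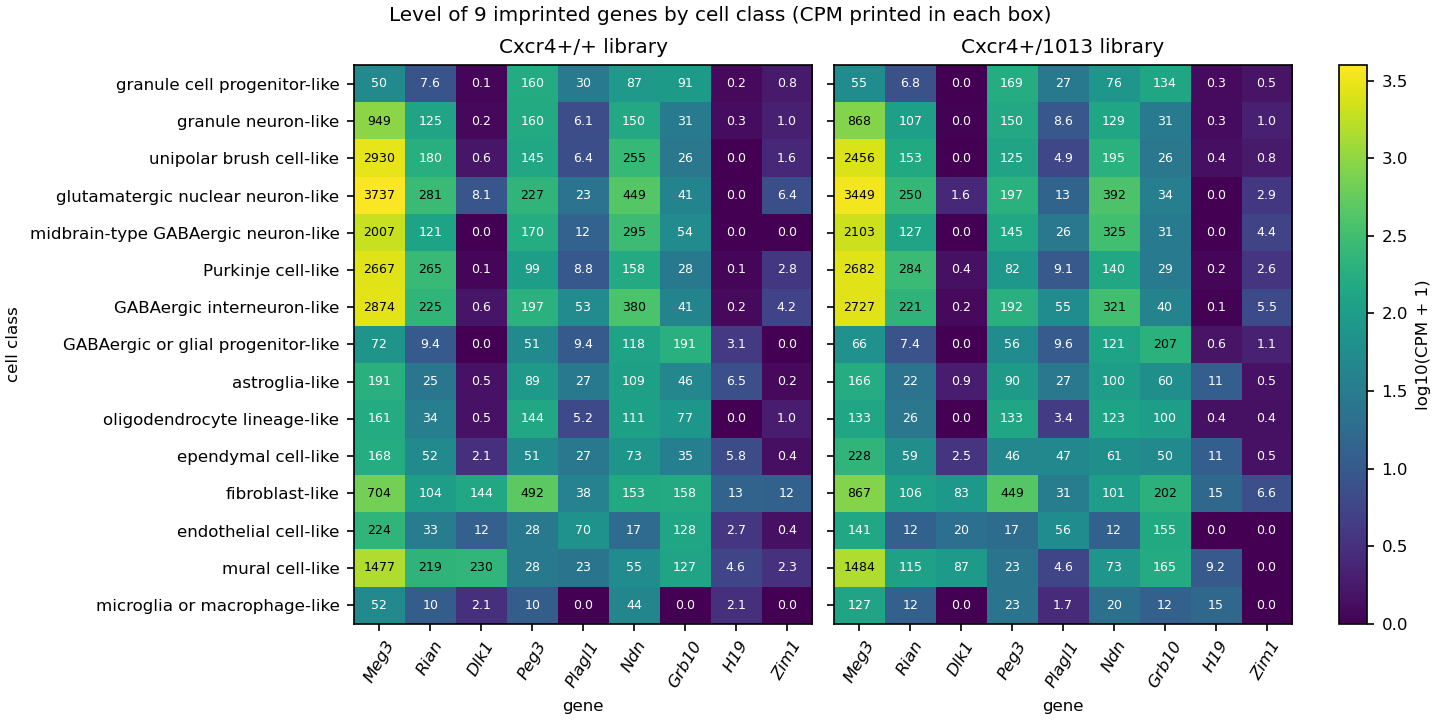
Level of each member (columns) in 15 cell classes (rows) in the control library (left) and the mutant library (right), with colour giving log10(CPM + 1) and the CPM printed in each box. Meg3 and Rian share their pattern, Dlk1 stands out in fibroblasts and mural cells, and H19 and Zim1 stay at or under 15.02 CPM throughout.

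Within the granule cell lineage, members went in opposite directions from progenitor to neuron. Progenitors were divided into dividing cells, with a UMI of Mki67 or Top2a, and other progenitors, and granule neurons into premigratory cells, with a UMI of Cntn2 or Nhlh1, and later cells. In control cells Meg3 stood at 45.9, 96.3, 691 and 1542 CPM along these 4 stages, and in mutant cells at 48.8, 139, 650.5 and 1612 CPM. The later neurons thus held 33.6-fold (31.1 to 36.3) and 33.1-fold (30.9 to 35.4) as much Meg3 as the dividing progenitors. Rian stood 27.1-fold (22.3 to 33.3) and 24.0-fold (19.8 to 29.3) higher. Ndn was 1.77-fold (1.61 to 1.94) and 1.91-fold (1.74 to 2.09) higher, and Peg3 changed little, at 1.07-fold (0.983 to 1.15) and 0.884-fold (0.814 to 0.958). Plagl1 went the other way, to 0.120-fold (0.0694 to 0.194) and 0.113-fold (0.0626 to 0.187). Grb10 went to 0.512-fold (0.441 to 0.592) and 0.329-fold (0.284 to 0.379), and was lowest in the premigratory cells, at 24.1 and 27.1 CPM, with 45.8 and 43.2 CPM in later neurons. Since the stages rest on UMIs of a few genes, shallow cells fall more readily into the other and later groups.

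**Figure D4:**
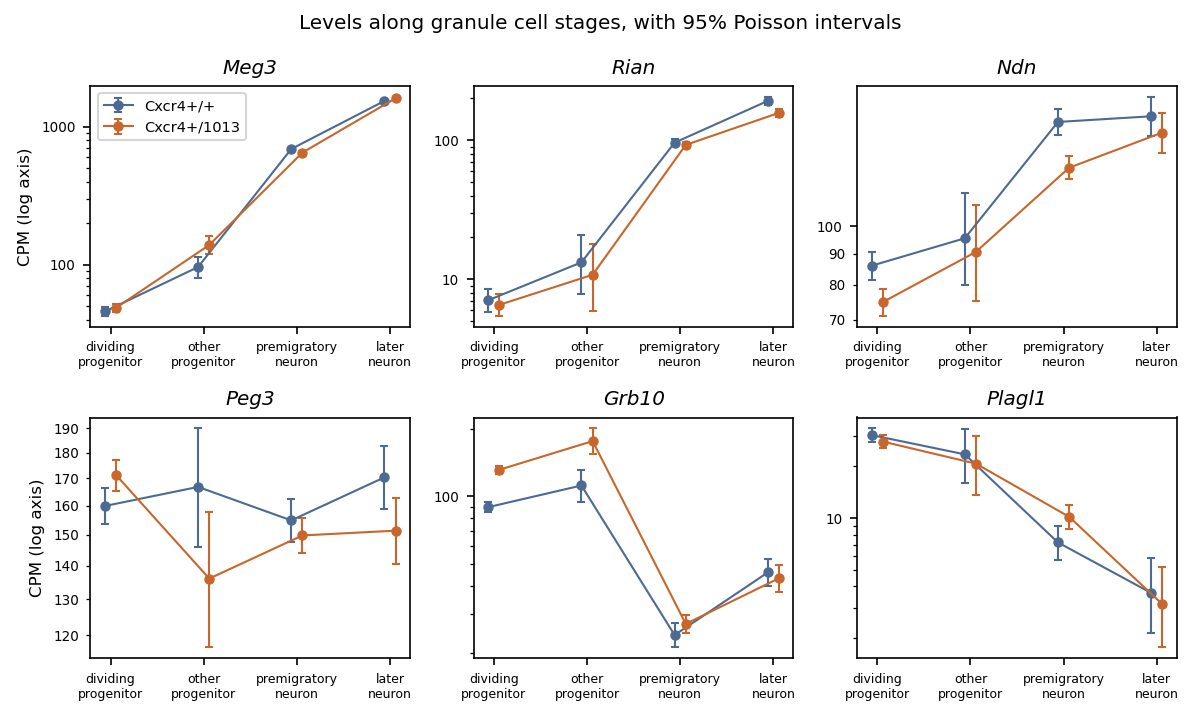
Levels of 6 members (CPM, log axes) along 4 granule cell stages in the control (blue) and mutant (orange) libraries, with 95% Poisson intervals. Meg3 climbs from 45.9 and 48.8 CPM to 1542 and 1612 CPM, and Plagl1 descends in both libraries.

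The libraries were then compared class by class. A gene was counted as different when the libraries stood at least 1.5-fold apart with at least 50 UMIs over both, a rule of size and not a test, and member ratios are mutant over control on the log2 scale. In the whole libraries only Dlk1 of the 9 members passed, lower in the mutant library, as 6.92% of 19414 genes were. No member was higher, and 2.19% of genes were. The median log2 ratio of the 9 was -0.10, and that of all genes -0.01. In a whole library, fewer cells of a type and less RNA per cell cannot be told apart, and fibroblasts made up 2.24% of the control but 0.427% of the mutant barcodes.

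Grb10 was the member most evenly higher in the mutant library. Its ratio was above 0 in 10 of the 13 classes with enough UMIs, with an interval wholly above 0 in 5 and wholly below 0 in none. The 10 include granule neurons, at 0.00. All genes also lay more often above 0 than below in every class but Purkinje and mural cells. They did so for 8040 of 13053 genes in granule cell progenitors and 7815 of 13217 in astroglia. Among 10 classes with enough UMIs in both sexes, the Grb10 ratio was above 0 in both in 6, below 0 in both in 1 and mixed in 3. Granule cell progenitors went from 91.3 to 134 CPM, a log2 ratio of 0.56 (0.47 to 0.65), which 3.91% of 13052 genes exceeded. This was just under the fold used, and 0 of the 6 members with enough UMIs passed in that class, where 3.58% of genes were higher and 1.52% lower. Of control progenitors thinned to 4000 UMIs 28.1% (25.3% to 31.0%) carried a Grb10 UMI, and of mutant ones 36.4% (33.5% to 39.3%), with 6 and 24 shallower cells left out. Without thinning the shares were 61.0% and 72.5%, at medians of 16809 and 17776 UMIs. Microglia had a Grb10 UMI in none of 39 (which allows up to 7.69%) and in 2.17% of 46 thinned cells. The difference was present in dividing progenitors, at 89.5 and 131 CPM, and in other progenitors, at 112 and 176 CPM. It was smaller among female cells, with a log2 ratio of 0.30 (0.16 to 0.44), than among male cells, with 0.77 (0.63 to 0.91). Astroglia went from 46.1 to 60.3 CPM (0.39, 0.21 to 0.57), oligodendrocyte lineage cells from 76.6 to 99.6 CPM (0.38, 0.08 to 0.68), ependymal cells from 35.0 to 49.9 CPM (0.51, 0.08 to 0.95) and fibroblasts from 158 to 202 CPM (0.35, 0.05 to 0.64). With TMM scaling the fibroblast ratio was 0.24 (-0.06 to 0.53), and among male ependymal cells it was -0.75, from 28 and 15 UMIs. Granule neurons, at 30.7 CPM in both libraries, Purkinje cells, at 27.5 and 29.4 CPM, and interneurons, at 40.9 and 39.6 CPM, had ratios of 0.00, 0.09 and -0.05. With 1 library per genotype, the spread between libraries of the same genotype is unknown.

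Ndn went the other way. Its ratio was below 0 in 10 of 13 classes, with an interval wholly below 0 in 7 and wholly above in none. The 6 neuronal and progenitor classes among these moved from 86.8 to 75.9 CPM in granule cell progenitors (log2 ratio -0.19, -0.30 to -0.09), from 149.9 to 129 CPM in granule neurons (-0.22, -0.30 to -0.13), and from 255 to 195 CPM in unipolar brush cells (-0.39, -0.52 to -0.25). Glutamatergic nuclear neurons had a ratio of -0.20, Purkinje cells -0.18 and interneurons -0.24. Of the 11 classes with at least 50 Ndn UMIs among both female and male cells, the ratio was below 0 in both sexes in 10 and above 0 in both in 1, oligodendrocyte lineage cells. For every member, female and male cells came from the same 2 libraries, so the sexes are not replicates. Over all genes, 5013 of 13053 lay below 0 in granule cell progenitors and 6369 of 13590 in interneurons. The ratios were small: 12.9% of genes in granule cell progenitors and 13.9% in interneurons were lower still. Fibroblasts, from 153 to 101 CPM (-0.60, -1.01 to -0.22), were the single class in which Ndn passed 1.5-fold.

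Meg3 and Rian differed little in the large classes. Meg3 stood at 1377 CPM in both whole libraries. Purkinje cells had a log2 ratio of 0.01 (-0.01 to 0.03) for Meg3 and 0.10 (0.04 to 0.15) for Rian. Granule neurons had -0.13 and -0.22, unipolar brush cells -0.25 and -0.24, and glutamatergic nuclear neurons -0.12 and -0.17, all with intervals below 0. In glutamatergic nuclear neurons, where male cells numbered 75 and 16, female cells had a Meg3 ratio of -0.36 (-0.41 to -0.32) and male cells one of 0.65 (0.55 to 0.74). In astroglia it was -0.20 over all cells but 0.66 (0.50 to 0.82) among female and 0.03 among male cells, and 0.33 with called doublets left out. Over the 13 classes with enough UMIs in both sexes, Meg3 ratios were below 0 in both in 4, above 0 in both in 3 and opposite in 6. None of the 6 members with enough UMIs passed 1.5-fold in granule neurons, where 2.74% of genes were higher and 2.67% lower. None of 7 did in Purkinje cells, where 2.15% were higher and 3.14% lower, and none of 7 in interneurons, where 2.41% were higher and 1.88% lower. Likewise 0 of 5 passed in unipolar brush cells, where 5.74% of genes passed in either direction, 0 of 4 in midbrain-type GABAergic neurons (13.6%), 0 of 4 in GABAergic or glial progenitors (9.39%) and 0 of 5 in oligodendrocyte lineage cells (6.51%). Fibroblasts had 704 and 867 CPM of Meg3 (0.30, 0.16 to 0.44) and ependymal cells 168 and 228 CPM (0.44, 0.25 to 0.64). Among female ependymal cells the ratio was 0.95 and among male ones 0.29. Summed granule neuron markers went from 454 to 1105 CPM in fibroblasts and from 539.7 to 833 CPM in ependymal cells, and their part in the Meg3 ratios was not tested.

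In the small classes the Meg3 and Rian ratios were large but rested on a few cells. Endothelial cells held 501 and 129 Meg3 UMIs, at 224 and 141 CPM, a log2 ratio of -0.67, and 74 and 11 Rian UMIs, a ratio of -1.46. One control cell carried 25.1% of the Meg3 UMIs and one mutant cell 45.0%. With doublets called by Scrublet left out, the Meg3 sums were 220 and 129 UMIs and the ratio 0.29. Of thinned endothelial cells 24.5% and 26.1% carried Meg3. Microglia or macrophages held 25 and 76 Meg3 UMIs, at 52.3 and 127 CPM, a ratio of 1.28, of which 1 mutant cell carried 53.9%. Without the called doublets they held 25 and 14 UMIs, a ratio of -0.97, and the thinned shares were 15.4% and 15.2%. Mural cells, with 95 and 25 Rian UMIs, had a Rian ratio of -0.93 (-1.63 to -0.29) and a Meg3 ratio of 0.01. Summed granule neuron markers in these classes were 803 and 598 CPM (endothelial), 184 and 392 CPM (microglia) and 239.6 and 1149.9 CPM (mural), and their part in the ratios was not tested. Of the members with enough UMIs, 3 of 6 were at least 1.5-fold lower in endothelial cells, as 8.48% of genes were. Meg3, Rian and Peg3, the last with 62 and 16 UMIs and a ratio whose interval included 0, were the 3. In mural cells Rian and Dlk1, 2 of 4, were lower, as 9.6% of genes were. In microglia 1 of 1, Meg3, was higher, as 12.4% of genes were.

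Dlk1 went from 5.88 to 1.15 CPM in the whole libraries, a log2 ratio of -2.36 (-2.62 to -2.09). Fibroblasts held 63.1% of the control and 34.5% of the mutant Dlk1 UMIs, and mural cells 14.8% and 13.1%. Within fibroblasts the level went from 144 to 82.6 CPM (-0.80, -1.26 to -0.38) and within mural cells from 230.4 to 87.0 CPM (-1.40, -2.20 to -0.69). The mutant sums rest on 50 UMIs in 18 of 35 fibroblasts and 19 UMIs in 11 of 24 mural cells. Among female cells the fibroblast ratio was -0.97 and among male cells -0.43. In fibroblasts 2 of 7 members, Dlk1 and Ndn, were at least 1.5-fold lower, as 7.49% of genes were. Dlk1 was also seen in glutamatergic nuclear neurons, with 25 UMIs from 10 control cells and 5 UMIs from 4 mutant cells, and the summed fibroblast markers there were 14.2 and 1.59 CPM. Their part in those Dlk1 counts was not tested.

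Plagl1 and H19 differed in single glial or neuronal classes. Plagl1 went from 26.7 to 47.5 CPM in ependymal cells (0.83, 0.36 to 1.30), the 1 of 6 members higher there, as 4.68% of genes were. Among female ependymal cells the ratio was 0.34 and among male ones 0.90. It went from 22.9 to 13.4 CPM in glutamatergic nuclear neurons (-0.78, -1.36 to -0.21), the 1 of 6 lower there, as 3.5% of genes were. Male cells made up 75 of the control and 16 of the mutant glutamatergic nuclear neurons, and the ratio among male cells was 0.20, from 16 and 6 UMIs. In granule neurons Plagl1 went from 6.13 to 8.58 CPM (0.49, 0.12 to 0.86), with the difference in premigratory cells, at 7.20 and 10.2 CPM, and 3.66 and 3.14 CPM in later cells. H19 in astroglia went from 79 UMIs, 6.46 CPM, to 85 UMIs, 10.9 CPM (0.76, 0.30 to 1.22), the 1 of 7 members that was higher there, as 3.84% of genes were, and 2.12% were lower. Of astroglia thinned to 4000 UMIs, 2.09% (1.20% to 3.37%) of the control and 4.64% (2.93% to 6.94%) of the mutant cells carried H19, with 175 and 72 shallower cells left out. The shares were 6.26% and 9.16% without thinning. None of 529 and none of 496 thinned Purkinje cells did, which allows up to 0.567% and 0.605%. Among female astroglia the ratio was 1.07 and among male astroglia 0.06. Of the 13 classes with enough UMIs, Peg3 differed by 1.5-fold or more in endothelial cells alone, where its counting interval included 0. Purkinje cells held 98.9 and 82.0 CPM of Peg3 (-0.27, -0.37 to -0.17). Zim1 had enough UMIs in 2 classes, with ratios of -0.11 in Purkinje cells and 0.39 in interneurons. Both Zim1 intervals included 0.

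**Figure D5:**
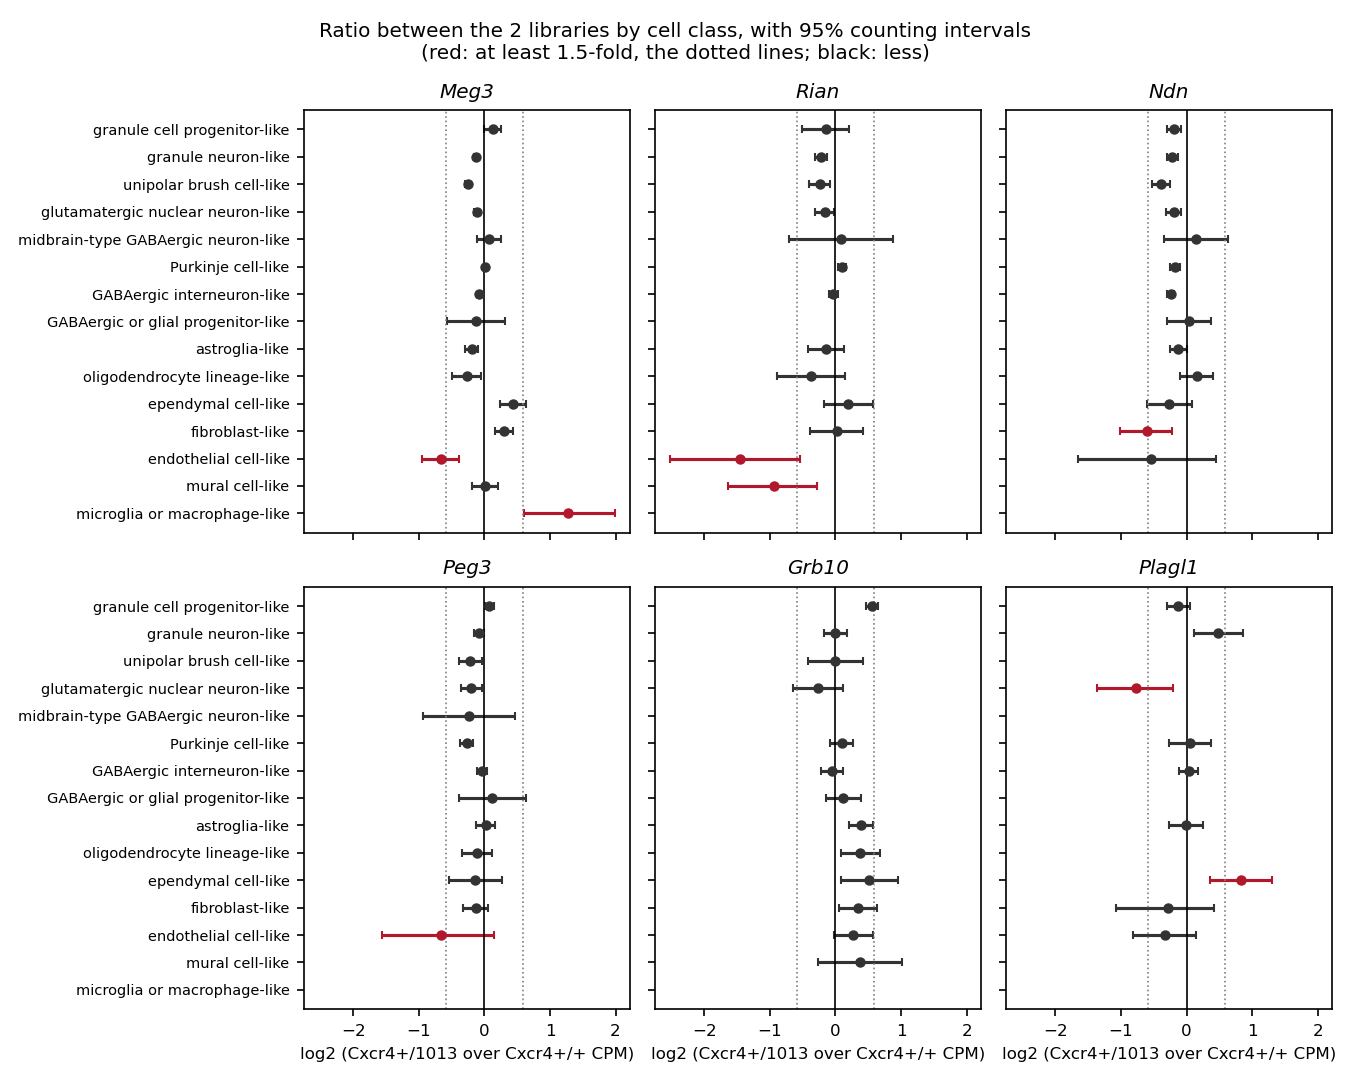
Log2 ratio of mutant to control CPM (horizontal axes) for 6 members in each class with at least 50 UMIs over both libraries, with 95% counting intervals; red points lie at least 1.5-fold apart and dotted lines mark that fold. Grb10 lies above 0 in 10 of 13 classes, among them granule neurons at 0.00, and Ndn below 0 in 10 of 13.

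The members were set beside other genes reported as imprinted in the mouse, a list of 81 from general knowledge that includes the members, of which 79 were in the gene list. In the whole libraries 1 of the 71 with enough UMIs was higher and 3 lower, Gnas and then Dlk1, Igf2 and Asb4. Over all genes 2.19% were higher and 6.92% lower. The median log2 ratio of the list was -0.02. In granule cell progenitors 3 of 50 were higher and 0 lower, as 3.58% and 1.52% of all genes were. The median was 0.12 against 0.06 over all genes. The 3 were Gnas, Zdbf2 and Atp10a. Gnas, which encodes the stimulatory G protein subunit that couples receptors to cyclic AMP, was higher in every one of the 15 classes, from 350.2 to 586 CPM in progenitors (log2 ratio 0.74) and from 558 to 916 CPM in Purkinje cells (0.72). Zdbf2 went from 16.0 to 25.7 CPM and Atp10a from 9.41 to 14.3 CPM in progenitors. Granule neurons had 2 of 54 higher, Gnas and Xlr3b, and 0 lower, with a median of 0.01. Over all genes 2.74% were higher there and 2.67% lower. Xlr3b has near-identical copies, so its counts are uncertain.

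In Purkinje cells 1 of 57 was higher and 2 lower, as 2.15% and 3.14% of all genes were, with a median of 0.01. Rtl1, a retrotransposon-derived gene between Meg3 and Rian, transcribed on the opposite strand to Meg3, went from 7.93 to 5.04 CPM there (-0.65), and Magel2, a MAGE gene near Ndn, from 3.24 to 1.33 CPM (-1.28). In interneurons 3 of 59 were higher, Gnas, Ampd3 and Xlr3b, and 2 lower, Slc22a3 and Htr2a, with a median of 0.00. Over all genes 2.41% were higher there and 1.88% lower. In astroglia 5 of 57 were higher, Gnas, H19, Ampd3, Calcr and Xlr3b, and 1 lower, Htr2a. Over all genes 3.84% were higher there and 2.12% lower. The median of the list, 0.05, was close to the 0.06 of all genes. Igf2, the insulin-like growth factor that neighbours H19, went from 50.5 to 8.01 CPM in the whole libraries, and from 1588 to 940.1 CPM within fibroblasts. Asb4 went from 2.54 to 1.49 CPM in the whole libraries and from 76.7 to 61.1 CPM within endothelial cells. Besides Gnas, with a whole-library ratio of 0.59, the most abundant other genes of the list were Nnat, Ube3a, Cd81, Snrpn, Snhg14, Kcnq1ot1 and Cdkn1c. Their whole-library ratios lay between -0.43 for Cd81 and 0.20 for Nnat. Snrpn, which shares the Prader-Willi region with Ndn, went from 256 to 241 CPM, a ratio of -0.08.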

How the data were processed

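The submitters' processing notes name bcl2fastq 2.20.0.4222, Cell Ranger 7.2 and the build mm10. The deposited matrices hold raw counts of UMIs per gene and barcode, not normalised, and start at 500 UMIs per barcode. The handling of intronic reads was not given in the sources used here. All 9 members and the lists were chosen with earlier results of these data known. Each cell was scored on each marker list by UMIs per 10000, scaled to the 90th percentile of positive cells, and assigned where at least 3 markers were detected and the best score was 1.5 times the next. These gate settings were set with the data in view. Cells with mixed markers stayed unassigned, which removed some doublets, and Scrublet (scanpy 1.11.5) was an alternative. UMIs were summed per class and library. Intervals are exact: Poisson for sums, Clopper-Pearson for shares, conditional binomial for ratios. Ratios, their intervals and the fold rule were tested on simulated sums, and the summing over cells was not. Among other imprinted genes, those named are the 8 most abundant and those at least 1.5-fold apart, with an interval that leaves out equality, in the whole library or 5 large classes. For likeness, the 3 genes with the highest r among those with at least 200 UMIs are candidates for naming, and not all of them are reported here. Alternatives were a stricter barcode filter (at least 1000 genes and at most 5% mitochondrial UMIs), Scrublet, a stricter gate, TMM (edgeR 4.0.16) and DESeq2 1.42.0 size factors, cells of each sex (Xist but no Y-linked UMI, or the reverse), and minimums of 10 and 200 UMIs.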

Additional observations from a re-analysis of the deposited data

Results flagged for a closer look

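For 3 members the mutant library lay above the control in one class and below it in another, with both counting intervals clear of 0 and at least 1 of the ratios past 1.5-fold. None of these differences between classes was tested, since each class has 1 library per genotype. Meg3 had a log2 ratio of mutant to control of 1.28 in microglia or macrophages and -0.67 in endothelial cells. Both of these Meg3 ratios changed sign with called doublets left out, and single cells carried much of the sums. Rian had 0.10 in Purkinje cells and -1.46 in endothelial cells, the latter with 11 mutant UMIs from 4 cells. Plagl1 had 0.83 in ependymal cells and -0.78 in glutamatergic nuclear neurons. Peg3 also had intervals on both sides of 0, above it in granule cell progenitors (0.08) and below it in 4 classes, among them Purkinje cells (-0.27), with none of these past 1.5-fold.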

How the results depend on the processing

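The 90 member ratios were recomputed under 7 alternatives, and 91 of the values changed sign, 47 of them among cells of 1 sex. Of the 91, 5 were of ratios past 1.5-fold, and in 4 both intervals were clear of 0. The 5 were Meg3 in endothelial cells (0.29 without Scrublet doublets, 1.17 in female cells), Meg3 in microglia (-0.97 without Scrublet doublets), Peg3 in endothelial cells (0.85 in female cells) and Plagl1 in glutamatergic nuclear neurons (0.20 in male cells). The 4 were Meg3 in endothelial cells (female), in glutamatergic nuclear neurons (0.65 in male cells) and in astroglia (0.66 in female cells, 0.33 without Scrublet doublets). The cause was not tested. In all, 536 values stayed within the counting interval of the reported ratio. TMM factors moved the ratios by -0.11 in fibroblasts, -0.10 in mural cells, -0.07 in astroglia and -0.05 in progenitors.

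Imprinted list genes at least 1.5-fold apart numbered 4 of 71 in the whole libraries, 7 in female cells and 8 with at least 10 UMIs. In granule cell progenitors the number was 3 of 50, with 6 in male cells and 9 with at least 10 UMIs. In granule neurons it was 2 of 54, with 6 at 10 UMIs and 1 at 200. Purkinje cells had 3 of 57, with 5 under the stricter barcode filter and 8 at 10 UMIs. Interneurons had 5 of 59, with 1 in female cells, 3 in male cells, 11 at 10 UMIs and 1 at 200. Astroglia had 6 of 57, with 10 at 10 UMIs and 2 at 200. Over all genes, the number apart with at least 50, 10 and 200 UMIs was 1769, 3414 and 1019 in the whole libraries, 666, 2168 and 226 in progenitors, 730, 2444 and 237 in granule neurons, 724, 2439 and 209 in Purkinje cells, 583, 2163 and 161 in interneurons and 787, 2411 and 246 in astroglia. The share of these that was higher in the mutant was 70.1% in progenitors (59.9% with TMM factors) and 64.4% in astroglia (48.4%). Genes with at least 50 UMIs numbered 19414 in the whole libraries, 13053 in progenitors and 13486 in granule neurons. Purkinje cells had 13689, interneurons 13590 and astroglia 13217. The number of genes with enough UMIs changes with the minimum and the cells used, so counts at the other settings cannot be read as shares.

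No paired analysis was possible because each genotype has 1 library. The depth limits H19, Zim1 and Dlk1, which had enough UMIs for a ratio in 1, 2 and 2 classes, and counting intervals leave out differences between animals.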
